A study of Caenorhabditis elegans with 6 samples.

Results

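The 8 aquaporin genes aqp-1 to aqp-8 and the 2 glycerol 3-phosphate dehydrogenase genes gpdh-1 and gpdh-2 of Caenorhabditis elegans were taken by symbol from a table of 45519 genes, and all 10 were found in it. Whole larvae were compared between the N2 wild type and the linc-133(aqz 3) mutant, in which aqz 3 names an allele of a long intervening noncoding RNA. Larvae of both strains hatched without food and were held in M9 buffer for 3 days at 20 °C, and every library is labelled as coming from animals arrested at the first larval stage. There were 6 libraries, 3 per strain. The labels do not say what the allele changes in linc-133, nor whether the replicates were grown as separate cultures. The spread that p-values measure is therefore that between these libraries, and it may be technical.

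Aquaporins are membrane channels that let water cross cell membranes, and the branch called aquaglyceroporins also passes glycerol. Glycerol is the main osmolyte that worms accumulate in salty surroundings. The cytosolic NAD-dependent glycerol 3-phosphate dehydrogenases make its precursor from the glycolytic intermediate dihydroxyacetone phosphate, and gpdh-1 is the gene that hypertonic stress is known to induce. aqp-1 has been described as a glycerol channel of the gut that depends on the transcription factors DAF-16 and HSF-1, and aqp-8 as a channel of the excretory canal.

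The recovered reads on genes ranged from 16108063 to 18556695 per library. The library size implied by the FPKM was 1.12 times these reads in mutant replicate 1 and 0.900 times in mutant replicate 3. It was 1.00 times in mutant replicate 2 and 0.992 to 1.03 times in N2. FPKM are therefore lower in mutant replicate 1, and higher in mutant replicate 3, than on a scale of recovered reads. The lncRNA linc-133 had 9, 6 and 5 reads in N2 replicates 1, 2 and 3 and 6, 2 and 2 reads in mutant replicates 1, 2 and 3, too few to check the genotype. Markers of gut, epidermis, body wall muscle, neurons, pharynx and excretory cell all had reads. Yolk protein genes, made by adults, summed to at most 1.99 FPKM over 6 genes. The early embryo markers pos-1, mex-5, pie-1 and oma-1 summed to 138 to 250.1 FPKM in N2 and 177 to 229 FPKM in the mutant, and all 4 had reads. In limma's test of log2(FPKM + 1) on 16794 genes, 0 genes passed an adjusted p of 0.05, and 2301 had an unadjusted p under 0.05. voom on the recovered reads called 3 genes, none of them among these 10. FPKM scales the fragments of a gene to its length and to the size of the library, so that levels can be set side by side between genes.

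None of the 10 genes passed the test. Of the 8 that reached a mean of 1 FPKM and were tested, 0 were higher and 0 lower, against a background of 0% higher and 0% lower over all tested genes. Their lowest adjusted p in limma was 0.29, for aqp-1. Unadjusted p-values under 0.05 were found for 2 of the 8, aqp-1 and aqp-4, both with higher means in the mutant, where 7.22% of all tested genes had such a p on the higher side and 6.48% on the lower side. By FPKM, the libraries of the strains stood apart in 0 of the 8. The share of all tested genes was 20%, 10.5% with the mutant above and 9.54% with it below. Among tested genes averaging 10 or more recovered reads, as the 8 do, the unadjusted shares were 8.13% higher and 6.11% lower. By FPKM, the strains stood apart in 21.8% of these, 12% with the mutant above and 9.81% with it below. The count of 0 depends on the scaling. Relative to the recovered reads of each library, all mutant libraries lay above N2 in aqp-1, aqp-4 and aqp-7, and the other genes overlapped. The share of all tested genes on that scaling was not counted. With it, adjusted p-values in limma were 0.314 for aqp-1, 0.372 for aqp-4 and 0.417 for aqp-7. The median difference over the 8 was 0.15 on the log2 scale, against -0.0015 over all tested genes.

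**Figure D1:**
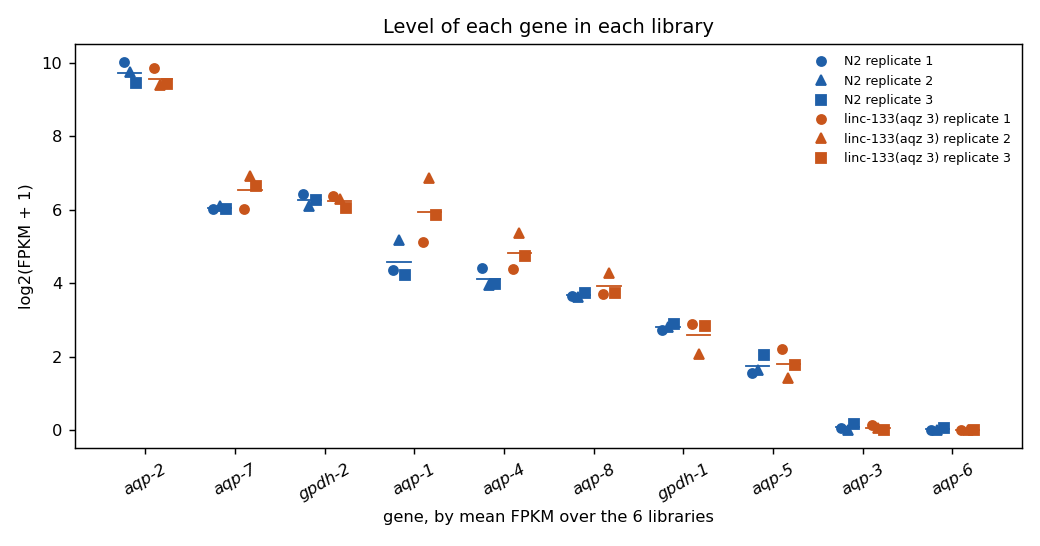
Level of each gene as log2(FPKM + 1) in each of the 6 libraries, with genes ordered by mean FPKM. Blue points are N2 and orange points linc-133(aqz 3), the marker shape gives the replicate number, and bars are group means. aqp-2 lies far above the rest, aqp-3 and aqp-6 lie at the bottom, and the points of the strains overlap in every gene.

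The plot of levels by library shows how unequal the family was. In N2 the order by mean FPKM was aqp-2, gpdh-2, aqp-7, aqp-1, aqp-4, aqp-8, gpdh-1, aqp-5, aqp-3 and aqp-6. Neighbours in that order did not overlap between libraries, except aqp-1 with aqp-4 and aqp-3 with aqp-6. In the mutant aqp-7 came before gpdh-2. There aqp-7 overlapped gpdh-2, gpdh-2 overlapped aqp-1, aqp-1 overlapped aqp-4, gpdh-1 overlapped aqp-5 and aqp-3 overlapped aqp-6.

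aqp-2 supplied most aquaporin RNA in both strains. It encodes an aquaporin that the file describes as related to an aquaglyceroporin, and its level was above that of 99.2% of the tested genes. aqp-2 measured 1030.2, 855 and 695 FPKM across N2 replicates 1, 2 and 3, then 925, 668 and 684 FPKM across mutant replicates 1, 2 and 3. Replicate 1 was the highest library of each strain, and the strains overlapped. The difference was -0.18 ± 0.20 on the log2 scale (SE, n = 3 each), with a 95% interval of -0.65 to 0.30 and an adjusted p in limma of 0.742. It was -0.04 without N2 replicate 1 and -0.33 without mutant replicate 1. Of the summed FPKM of the 8 aquaporins, aqp-2 made up 89.8%, 86.8% and 86.2% over the N2 libraries and 87.4%, 69.4% and 77.8% over the mutant libraries. The sum itself was 980 ± 171 FPKM in N2 and 967 ± 89.7 FPKM in mutant larvae (SD, n = 3 each). The file places aqp-2 on chromosome II of WBcel235 from 9255309 to 9261994 on the minus strand. The annotation of that build puts its lower coordinate, the downstream end on this strand, at 9259048. The longer span overlaps that of nlp-82, on the same strand, by 3076 bases. nlp-82 had between 269 and 678 reads in a library and aqp-2 between 13538 and 24929.

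aqp-1, the glycerol channel of the gut, had the largest difference on the log2 scale among the 8 tested genes. It measured 19.5, 35.2 and 17.7 FPKM across N2 replicates 1, 2 and 3, then 33.6, 114 and 56.8 FPKM across mutant replicates 1, 2 and 3. Mutant replicates 2 and 3 were the highest libraries, while mutant replicate 1 lay just under N2 replicate 2 by FPKM. Relative to recovered reads it lay above, with 753 of 18440824 reads against 687 of 18104344 in N2 replicate 2. The mean was 2.83-fold higher in the mutant, at 68.3 ± 41.6 FPKM against 24.2 ± 9.60 FPKM (SD, n = 3 each). On the log2 scale the difference was 1.35 ± 0.46 (SE), with an unadjusted 95% interval of 0.24 to 2.46 and an adjusted p in limma of 0.29. Leaving out mutant replicate 2 gave a difference of 0.90, leaving out mutant replicate 1 gave 1.76, and leaving out N2 replicate 3 gave 1.17. The libraries held 329 to 2009 reads of aqp-1, so the spread within the mutant is far above counting error. aqp-1 is a minus-strand gene of chromosome II (7235828 to 7238349) and shares 118 bases of its span with ctsa-3.1 on the opposite strand. ctsa-3.1 measured 15.7, 13.6 and 10.5 FPKM over the N2 libraries and 14.8, 26.9 and 23.4 FPKM over the mutant libraries. No strand-specific counting is stated, so it is uncertain which gene the reads of the shared bases came from. In bulk RNA of whole larvae, a difference in the number of cells of a type and one in RNA per cell cannot be told apart.

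aqp-4, an aquaporin of the gut, had a lower mean than aqp-1 in both strains. It measured 20.4, 14.5 and 14.8 FPKM across N2 replicates 1, 2 and 3, then 19.9, 40.2 and 25.6 FPKM across mutant replicates 1, 2 and 3. As in aqp-1, mutant replicates 2 and 3 were highest and mutant replicate 1 lay inside the N2 range by FPKM. Relative to recovered reads, mutant replicate 1 lay above that range. The highest N2 library was replicate 1 here and replicate 2 in aqp-1. The difference was 0.71 ± 0.27 on the log2 scale (SE, n = 3 each), with an interval of 0.06 to 1.36 and an adjusted p in limma of 0.332, and it was 0.44 without mutant replicate 2. The file starts aqp-4 on the plus strand of chromosome V at 9734938, where the annotation starts it at 9737556, and ends it at 9739740. The span overlaps cal-7 and a further gene on the same strand, which had at most 14 and 8 reads in a library, against 342 to 881 reads of aqp-4.

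The summed level of the 5 gut markers elt-2, elt-7, ges-1, ifb-2 and act-5 was 905 to 1041 FPKM in N2 and 792 to 1169 FPKM in the mutant. All 5 had a mean of at least 1 FPKM and none was at 0. The sum was mostly ifb-2 and act-5. Mutant replicate 2, the highest library for aqp-1 and aqp-4, was also highest for elt-2 (25.95 FPKM), ges-1 (31.1 FPKM) and, narrowly, act-5 (328 FPKM). elt-7 was highest in N2 replicate 3 (16.8 FPKM) and ifb-2 in mutant replicate 3 (784 FPKM). Their part in the levels of aqp-1 and aqp-4 was not tested.

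aqp-7, which the file also describes as related to an aquaglyceroporin, was the steadiest aquaporin in N2. It measured 63.7, 67.0 and 63.5 FPKM across N2 replicates 1, 2 and 3, then 64.01, 119.4 and 98.4 FPKM across mutant replicates 1, 2 and 3. By FPKM, mutant replicates 2 and 3 lay above all N2 libraries and mutant replicate 1 among them. Relative to recovered reads, mutant replicate 1 lay above them too. The difference was 0.49 ± 0.23 on the log2 scale (SE, n = 3 each), with an interval of -0.06 to 1.03 and an adjusted p in limma of 0.414. It was 0.74 without mutant replicate 1 and 0.29 without mutant replicate 2. aqp-7 lies on the X chromosome from 3025069 to 3026974 on the plus strand.

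aqp-8, the channel of the excretory canal, measured 11.5, 11.4 and 12.25 FPKM across N2 replicates 1, 2 and 3, then 12.1, 18.4 and 12.32 FPKM across mutant replicates 1, 2 and 3. Only mutant replicate 2 lay clearly apart from the other 5 libraries. The difference was 0.24 ± 0.18 on the log2 scale (SE, n = 3 each), with an interval of -0.20 to 0.68 and an adjusted p in limma of 0.621, and it was 0.05 without mutant replicate 2. The summed level of the 3 excretory cell markers pgp-12, glt-3 and ceh-6 was 21.6 to 22.6 FPKM in N2 and 22.9 to 29.8 FPKM in the mutant. None of them was at 0. The means of glt-3 and ceh-6 were higher in the mutant, and that of pgp-12 was lower (1.69 against 1.81 FPKM). In mutant replicate 2, glt-3 and ceh-6 were at their highest and pgp-12 was at 1.41 FPKM, near its lowest. Their part in the level of aqp-8 was not tested. aqp-8 lies on the X chromosome from 4702123 to 4704970 on the minus strand, with no other listed gene in its span.

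aqp-5 was weakly expressed, at 1.92, 2.09 and 3.10 FPKM across N2 replicates 1, 2 and 3, then 3.65, 1.67 and 2.41 FPKM across mutant replicates 1, 2 and 3. The mutant libraries included both the highest and the lowest value. These rest on 28 to 78 reads a library, and the interval of the difference was -0.60 to 0.72 on the log2 scale. aqp-5 lies on the plus strand of chromosome V from 10491743 to 10493256.

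aqp-3 and aqp-6 did not reach the level needed for testing. aqp-3 had 1, 0 and 3 reads in N2 replicates 1, 2 and 3 and 3, 1 and 0 reads in mutant replicates 1, 2 and 3. A count of 0 allows up to 0.115 FPKM in N2 replicate 2 and 0.133 FPKM in mutant replicate 3, taking 3 counts as the limit and covering counting error only. aqp-6 had 1 read in all, in N2 replicate 3. The 5 libraries without a read allow 0.123 to 0.162 FPKM each. For aqp-6 this limit holds only for reads that were assigned to it. Its span on chromosome V, from 10648446 to 10651997, is shared over 3512 of 3552 bases with that of C32C4.16, which the file describes as similar to an aquaporin and which runs on the same strand. C32C4.16 had 5 to 10 reads a library. In the WBcel235 annotation C32C4.16 ends at 10648114, before aqp-6 starts, and how reads in the shared span were assigned is not given in the sources used here.

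**Figure D2:**
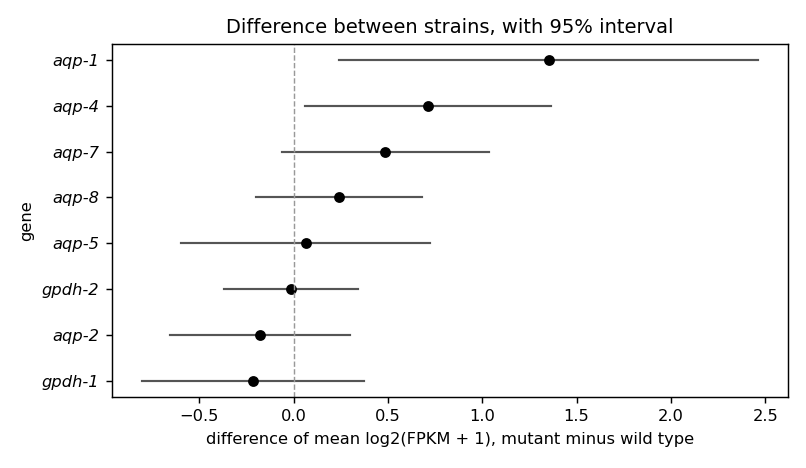
Difference of mean log2(FPKM + 1), mutant minus wild type, for the 8 tested genes, with points for the estimate and lines for the unadjusted 95% interval in limma. The intervals of aqp-1 (0.24 to 2.46) and aqp-4 (0.06 to 1.36) lie above 0, those of the other 6 genes include it, and none passed after adjustment.

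The glycerol 3-phosphate dehydrogenases came next. gpdh-2, the form expressed without osmotic stress, measured 84.3, 67.1 and 75.7 FPKM across N2 replicates 1, 2 and 3, then 82.4, 77.01 and 65.4 FPKM across mutant replicates 1, 2 and 3. The strains covered nearly the same range. The difference was -0.01 ± 0.15 on the log2 scale (SE, n = 3 each), with an adjusted p in limma of 0.976. Its 95% interval of -0.37 to 0.34 corresponds to 0.775 to 1.26 times the N2 level. gpdh-2 lies on the minus strand of chromosome III from 9853807 to 9859183, and 296 bases of this span are shared with K11H3.3 on the opposite strand.

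gpdh-1, the form known for its induction by high salt, was low in both strains. It measured 5.56, 5.98 and 6.46 FPKM across N2 replicates 1, 2 and 3, then 6.35, 3.20 and 6.09 FPKM across mutant replicates 1, 2 and 3. Mutant replicate 2 was the lowest library, on 75 reads, while the other 5 libraries held 138 to 190 reads. The difference was -0.21 ± 0.25 on the log2 scale (SE, n = 3 each), with an interval of -0.80 to 0.37 and an adjusted p in limma of 0.748. Without mutant replicate 2 it was 0.05. gpdh-1 lies on the plus strand of chromosome I from 14075693 to 14078211. The level of gpdh-2 was 15.2, 11.2 and 11.7 times that of gpdh-1 over the N2 libraries and 12.97, 24.1 and 10.7 times in the mutant libraries.

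**Figure D3:**
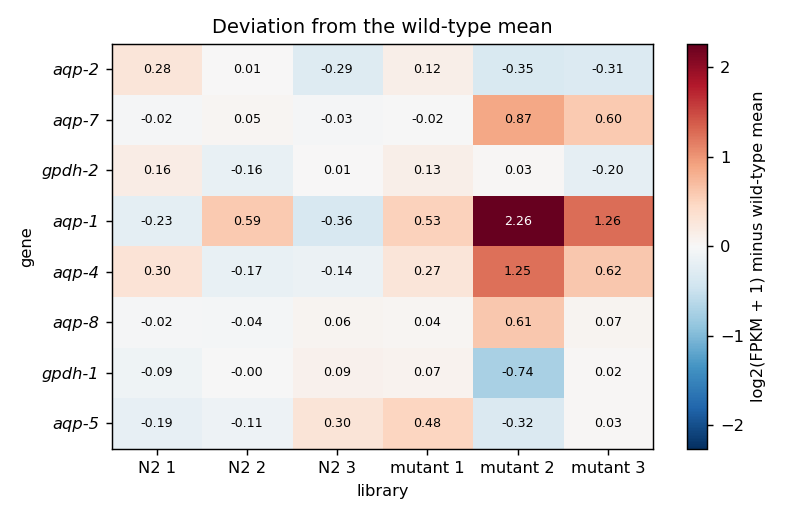
Deviation of each library (columns) from the N2 mean in log2(FPKM + 1) for the 8 tested genes (rows), with red above and blue below that mean. Mutant replicate 2 is highest in aqp-1 (2.26), aqp-4 (1.25), aqp-7 (0.87) and aqp-8 (0.61) and lowest in aqp-2 (-0.35), aqp-5 (-0.32) and gpdh-1 (-0.74).

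In aqp-1, aqp-4, aqp-7, aqp-8 and gpdh-1, mutant replicate 2 deviated most from the N2 mean, as the plot of deviations shows. In aqp-2 it lay close to mutant replicate 3 (-0.35 and -0.31). In aqp-5 mutant replicate 1 deviated most (0.48), and in gpdh-2 mutant replicate 2 was near the N2 mean (0.03). Mutant replicate 2 was the highest of the 6 libraries in 4 of the 8 tested genes (aqp-1, aqp-4, aqp-7 and aqp-8) and the lowest in 3 (aqp-2, aqp-5 and gpdh-1). Over all tested genes it was the highest in 20.0% and the lowest in 16.03%, while mutant replicate 3 was the highest in 23.9% and the lowest in 19.5%. By FPKM, mutant replicate 1 was within the N2 range in aqp-1, aqp-2, aqp-4, aqp-7, aqp-8, gpdh-1 and gpdh-2. Relative to recovered reads, it lay above every N2 library in each of these genes except aqp-2. Mutant replicate 3 was above every N2 library by FPKM in aqp-1, aqp-4, aqp-7 and, narrowly, aqp-8. For aqp-8 this turned with the scaling, as mutant replicate 3 lay below every N2 library relative to recovered reads. Summed without aqp-2, the other 7 aquaporins came to 117, 130 and 112 FPKM over the N2 libraries and to 133.4, 294 and 196 FPKM over the mutant libraries. These are values of levels added up, with no test.

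Across the 6 libraries, Pearson's r of log2(FPKM + 1) with aqp-1 was 0.93 for aqp-7, 0.85 for aqp-4 and 0.81 for aqp-8, and -0.77 for gpdh-1 and -0.55 for aqp-2. These describe 6 libraries of 2 strains, so a difference between the strains enters each r. Of 8397 other genes averaging 10 FPKM or more, the 5 closest to aqp-1 were Y48A6B.7, dmsr-6, F22B5.4, C50F4.8 and F11A5.9, with r from 0.9815 to 0.9944. A high r gives a like order and shape over the libraries, not a like size of difference. Y48A6B.7, the closest, measured 77.8, 88.5 and 75.6 FPKM over the N2 libraries and 92.9, 123 and 103 FPKM over the mutant libraries. dmsr-6 measured 11.3, 12.3 and 10.9 FPKM and 12.4, 14.5 and 13.1 FPKM in the same order. F22B5.4 measured 13.3, 21.2 and 15.5 FPKM over the N2 libraries and 23.8, 72.1 and 35.9 FPKM in the mutant libraries. F11A5.9 measured 22.7, 34.9 and 17.3 FPKM and 29.3, 101 and 68.02 FPKM in the same order.

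Genes around glycerol and the osmotic response were read from the same fit. Over 6 lists, 61 of 64 listed genes were tested and 0 passed in either direction. An unadjusted p under 0.05 was found for 8 of the 61 on the higher side and 0 on the lower side, against 7.22% and 6.48% of all tested genes. The mutant libraries all lay above those of N2 in 11 of them and below in 1, against 10.5% and 9.54% of all tested genes.

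**Figure D4:**
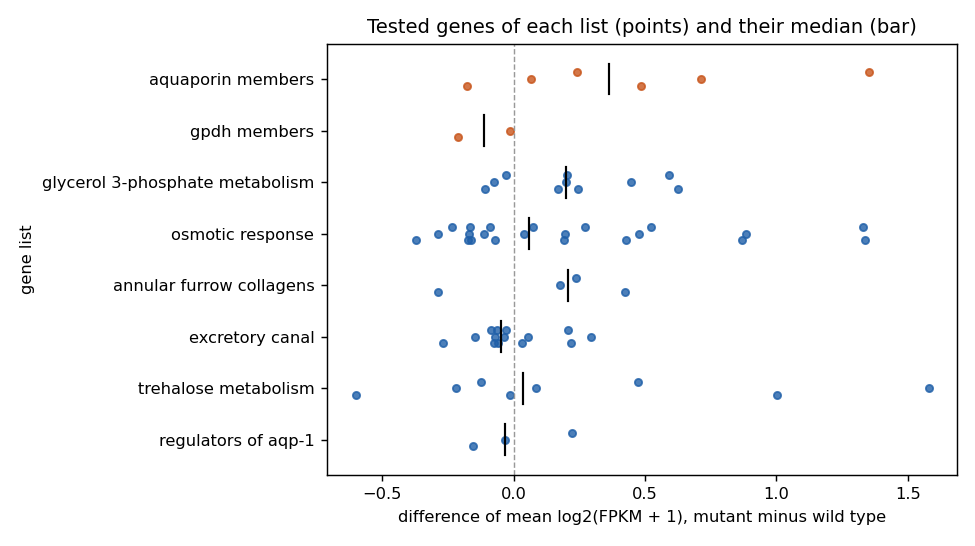
Difference of mean log2(FPKM + 1), mutant minus wild type, for each tested gene (points) of the 2 gene families and 6 related lists (rows), with the list's median as a bar. The medians of the 6 related lists lie between -0.05 and 0.21, and single genes of the trehalose and osmotic lists reach 1.58 and 1.34.

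Enzymes of glycerol 3-phosphate metabolism, with the glycolytic enzymes that make or use dihydroxyacetone phosphate, formed the first list, with 0 of 10 tested genes past the test and a median of 0.20 on the log2 scale. R11F4.1, which encodes a glycerol kinase, measured 90.6, 93.2 and 65.8 FPKM over the N2 libraries and 100.1, 129 and 149 FPKM over the mutant libraries. The strains did not overlap, and the adjusted p in limma was 0.296. The acyltransferase gene acl-4 measured 36.0 ± 2.67 FPKM in N2 and 42.8 ± 2.87 FPKM in mutant larvae (SD, n = 3 each). pgph-2, a phosphatase gene, measured 7.21 ± 3.11 and 11.1 ± 1.41 FPKM, and the aldolase gene aldo-2, the most abundant of the list, 2214 ± 244 and 2120 ± 393 FPKM.

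In the osmotic response list 0 of 22 tested genes passed, with a median of 0.06. The regulators osr-1 and osm-8, whose loss is known to raise gpdh-1, had the largest differences. osr-1 measured 3.11, 0.839 and 1.32 FPKM over the N2 libraries and 5.53, 5.80 and 5.37 FPKM over the mutant libraries. The mutant libraries were close to each other and all above N2, with an adjusted p in limma of 0.183. osm-8 measured 4.67, 1.05 and 1.66 FPKM over the N2 libraries and 6.12, 9.76 and 5.38 FPKM in the mutant libraries, again without overlap, with an adjusted p in limma of 0.26. N2 replicate 1 was the highest N2 library in both. osm-10, needed for sensing high osmolarity in the ASH neurons, measured 13.7 ± 3.04 FPKM in N2 and 26.1 ± 7.70 FPKM in mutant larvae (SD, n = 3 each). The peptide gene nlp-29, the most abundant of the list, measured 298 ± 31.5 and 284 ± 118 FPKM.

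The collagens of the annular furrows are cuticle proteins whose loss is known to induce gpdh-1. Of 6, 4 were tested and 0 passed, and dpy-10 was listed at 0 in every library. dpy-8 was not tested either, as its mean of 0.954 FPKM lay just under the filter. It had 28, 42 and 34 reads over the N2 libraries and 16, 16 and 17 reads over the mutant libraries. Its FPKM in the mutant libraries all lay below N2. dpy-7 measured 91.4, 42.8 and 31.6 FPKM over the N2 libraries and 90.7, 56.8 and 39.6 FPKM in the mutant libraries, so that replicate 1 was the highest in each strain. dpy-3 followed the same order in N2, at 61.7, 28.2 and 18.6 FPKM, with 68.2, 33.6 and 35.2 FPKM in the mutant. dpy-9 measured 1.39 ± 0.41 FPKM in N2 and 0.985 ± 0.53 FPKM in mutant larvae (SD, n = 3 each).

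Of 14 excretory canal genes, all tested, 0 passed and the median was -0.05. The lowest p belonged to erm-1, which encodes a protein linking membrane and actin, with 138 ± 8.49 FPKM in N2 and 114.8 ± 14.3 FPKM in mutant larvae (SD, n = 3 each). Its mutant libraries all lay below N2, with an adjusted p in limma of 0.449. ceh-6, the homeobox gene known to drive aqp-8, measured 8.33, 8.93 and 8.36 FPKM over the N2 libraries and 8.84, 10.97 and 10.5 FPKM over the mutant libraries. The glutamate transporter gene glt-3 measured 11.9 ± 0.282 and 15.01 ± 2.74 FPKM, and the proton pump subunit gene vha-8, the most abundant, 438 ± 17.1 and 421 ± 80.5 FPKM.

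Trehalose, a sugar, is another osmolyte of worms, and 0 of 8 genes of its metabolism passed, with a median of 0.03. The trehalose 6-phosphate synthase gene tps-2 measured 13.1, 14.6 and 17.1 FPKM over the N2 libraries and 19.2, 52.5 and 97.7 FPKM in the mutant libraries. tps-1 measured 35.1, 36.3 and 31.4 FPKM and 41.3, 63.8 and 127 FPKM in the same order. In both, mutant replicate 3 was the highest library and mutant replicate 1 the lowest of the mutant, where aqp-1 peaked in mutant replicate 2. The trehalase gene tre-1 measured 30.8 ± 0.28 FPKM in N2 and 43.6 ± 8.70 FPKM in mutant larvae (SD, n = 3 each), without overlap. Adjusted p-values in limma were 0.282, 0.328 and 0.296 for tps-2, tps-1 and tre-1.

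By FPKM, the regulators of aqp-1 overlapped between the strains in all 3 genes, and 0 passed. Relative to recovered reads, all mutant libraries of hsf-1 lay below N2. The insulin pathway factor gene daf-16 measured 63.6 ± 1.76 FPKM in N2 and 76.5 ± 24.6 FPKM in the mutant, the heat shock factor gene hsf-1 36.5 ± 0.826 and 32.9 ± 4.90 FPKM, and the insulin receptor gene daf-2 46.5 ± 5.36 and 52.9 ± 37.3 FPKM (SD, n = 3 each). Mutant replicate 3 held the highest value of each, at 105, 38.6 and 95.3 FPKM. In that library, which was also the highest for tps-1 and tps-2, the 4 body wall muscle markers summed to 3398 FPKM, against 1743 to 2027 FPKM in N2. The muscle myosin gene unc-54 measured 781, 924 and 794 FPKM over the N2 libraries and 578, 642 and 1672 FPKM over the mutant libraries. The muscle transcription factor gene hlh-1 was lowest in that library, at 17.5 FPKM against 20.4 to 26.9 FPKM in the other 5. Other genes, named after their values were seen, also stood out in mutant replicate 3. The pharyngeal myosin gene myo-2 was highest there, at 402 FPKM against 147 to 225 FPKM in the other 5. So were wnk-1 and lea-1 of the osmotic list, at 141 FPKM against 44.6 to 51.3 FPKM and 482 FPKM against 90.6 to 142 FPKM. nlp-29 and the pharynx marker tnc-2 were lowest there, at 148 and 152 FPKM. By reads per FPKM, the genes named here as highest in mutant replicate 3 are longer than hlh-1, nlp-29 and tnc-2. The part of muscle RNA or of gene length in these levels was not tested.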

How the data were processed

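RNA sequencing measured gene levels in 6 libraries, 3 of N2 and 3 of linc-133(aqz 3), grouped by their titles. The authors deposited FPKM per gene, per the file headers. StringTie, STAR 2.5.2b, Bowtie 0.12.2 and the build WBcel235 appear in the submitters' processing notes with no role. The strand setting used in counting is not given in the sources used here. Per the labels' protocols, a TruSeq RNA kit was used. FPKM times gene length stepped in whole reads in 100% of 131954 values above 0 (tolerance 0.01 reads), which gave the reads behind each value.

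The 10 genes were matched by symbol, and positions were compared with release 115 of the WBcel235 annotation. The 16794 genes averaging 1 FPKM or more were fitted together, as log2(FPKM + 1), in R 4.3.3 by limma 3.58.1 with trend and robust moderation and strain as the only term. P-values were 2-sided and adjusted by the Benjamini-Hochberg method over all tested genes. The fold changes on this scale understate those of low genes. Tested on simulated data, the fit recovered changed genes and kept its error rate for genes of at least 10 reads, but called too many unchanged piRNA genes of few reads. The simulated counts varied independently, with the same dispersion for every gene and library. The error rate with a deviating library, such as mutant replicate 2 here, was therefore not tested. The piRNA genes are part of the 2631 tested genes with a mean under 10 reads, so counts over all genes include genes for which the test is too lenient. Each of the 8 tested genes had more reads than that. The tested genes at or above 10 reads numbered 14163.

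The members and lists were chosen with earlier results of these data known. All 10 members are named, with the 3 genes of lowest p and the most abundant gene of each list, and the 5 genes closest to aqp-1, the member of lowest p. nlp-82, ctsa-3.1, cal-7, K11H3.3 and C32C4.16 are named because they overlap members. Alternatives were pseudocounts of 0.1 and 5, 3 filters, 2 scalings, plain moderation, voom with and without library weights, the replicate block, a threshold of 0.1 and leaving out each library.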

Additional observations from a re-analysis of the deposited data

How the results depend on the processing

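In each of 18 alternatives 0 member genes passed, so no call depended on a setting. The planned tests with edgeR and DESeq2 were not run, since the table holds FPKM, and a voom fit on the recovered reads stands in their place. Over alternatives the adjusted p of aqp-1 was 0.0984 to 0.64 and that of aqp-4 0.0597 to 0.699, both lowest when voom weighted libraries by quality, which was chosen after seeing the data. The count over all genes was 0 without any 1 of the 6 libraries, 1 with a filter at 10 recovered reads (anmt-3), 3 with voom (anmt-3, Y22D7AL.10 and sti-1, named after their values were seen), 9 at an adjusted p of 0.1, 23 with neither trend nor robust moderation and 363 in voom with quality weights (297 higher, 66 lower). That last fit called 3 pathway genes, osr-1, osm-8 and tps-2, against 0 in the others. The sign of small differences turned with the library left out. Without 1 library, aqp-5 was -0.14 to 0.26, gpdh-1 -0.357 to 0.0470, gpdh-2 -0.0972 to 0.0785, aldo-2 -0.177 to 0.0872, nlp-29 -0.403 to 0.246, dpy-7 -0.0854 to 0.667, vha-8 -0.168 to 0.0955, daf-16 -0.0271 to 0.368 and daf-2 -0.561 to 0.373. In voom with quality weights gpdh-2 was 0.0839. The cause was not tested. With the replicate block 0 genes passed, members included. Same-numbered libraries had correlations of 0.0162, -0.0345 and 0.0288 in their deviations from the strain means, and other pairs -0.0586 to 0.0518. These values over all tested genes show no pairing by number, but do not settle it for single genes. With the block the SE fell from 0.464 to 0.231 for aqp-1 and from 0.448 to 0.147 for dpy-7. It rose from 0.272 to 0.302 for aqp-4. Counts of 28 to 78 reads limit aqp-5, and aqp-3 and aqp-6 had too few reads to compare.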

Other observations

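The table holds 4 further aquaporin genes, found by symbol after their values were seen. aqp-10 measured 79.6 ± 3.27 FPKM (SD, n = 3) in N2 and 81.6 ± 17.6 FPKM in mutant larvae (SD, n = 3). In N2 its libraries lay above those of aqp-7 and overlapped those of gpdh-2. aqp-11 measured 33.6 ± 2.72 and 40.04 ± 9.63 FPKM, and aqp-9 10.8 ± 1.34 and 11.1 ± 3.52 FPKM, with overlapping libraries in each. aqp-12 measured 1.53, 2.06 and 2.30 FPKM across N2 replicates 1, 2 and 3, then 2.78, 2.78 and 2.67 FPKM across mutant replicates 1, 2 and 3. Its strains did not overlap, on 26 to 51 reads a library, and its adjusted p in limma was 0.495. Adjusted p-values in limma were 0.985, 0.677 and 0.993 for aqp-10, aqp-11 and aqp-9. The span of aqp-12 shares 72 bases with that of pqn-87 on the opposite strand, which had 5527 to 10693 reads a library.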
